A study of Mus musculus with 24 samples.

Results

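The lingual part of the developing mouse molar was compared before and after culture. Its members were the libraries whose labels name the lingual part of the cap stage, either without culture (Cap-L, 3 libraries) or after 2 days in vitro (Cap-L+2D, 3 libraries), which made 6 of the 24 libraries of the series. All embryos were of the ICR strain, with no transgene or deletion in any group used here. The study split the first molar germ of the lower jaw into a lingual and a buccal part with a needle, then freed the mesenchyme from the epithelium with dispase II and sequenced its RNA. In the cultured group the part was kept in vitro first and the mesenchyme was taken afterwards, so epithelium was present during culture. The lingual part of the bell stage (Bell-L, 3 libraries, not cultured) served as the stage that the tissue reaches in the embryo, and the buccal part of the cap stage before and after the same culture (Cap-B and Cap-B+2D, 3 libraries each) as the other side. Germs of several embryos were collected for RNA, and the study's methods state the number of replicates in different ways and do not say whether the 3 libraries of a group came from separate animals, so p-values measure the spread between these libraries, which may be technical.

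At the cap stage the epithelium folds around a condensed mesenchyme, and the mesenchyme carries the signals that decide whether a tooth forms. Wnt, BMP, FGF and Hedgehog proteins pass between both layers, and each pathway induces its own secreted inhibitors. The mesenchyme later gives rise to the pulp and the dentin-forming odontoblasts, while cells of the surrounding follicle form cementum, ligament and bone.

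The cultured and uncultured lingual libraries held between 26307346 and 39266497 counted read pairs. Values are normalized CPM, the count of a gene relative to the scaled library size (TMM). Logarithms of values correlated between libraries of 1 group at 0.994 to 0.995 across genes, and the biological coefficient of variation in the fit was 4.25%. The mesenchyme markers Pax9, Msx1, Lhx6, Lhx8, Barx1, Prrx1, Twist1, Pdgfra, Col1a1 and Vim were all measured, and their summed level was 6183 to 6477 CPM before culture and 13030 to 14030 after it. Of these 10 markers 3 were higher, 3 lower and 4 not called after culture, with a median log2 fold change of 0.10, and Col1a1 alone went from between 2107 and 2321 to between 8114 and 9028 CPM. Markers of other cell types were present in both groups and moved between them, as given below, and in bulk RNA fewer cells of a type and less RNA per cell cannot be told apart.

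Culture changed a large part of the transcriptome. Of 21425 genes tested, 4196 (19.6%) were higher and 3397 (15.9%) lower in Cap-L+2D than in Cap-L, at an adjusted p under 0.05 in edgeR's quasi-likelihood test and an absolute log2 fold change over 0.5. The median log2 fold change over all genes tested was -0.03. Scaling by library totals alone moved that median to -0.18 and the split to 3370 higher and 4974 lower genes, so the share of higher genes among those called went from 55.3% to 40.4%. The level of 67.3% of the genes did not overlap between the 3 libraries of each group. The genes named below for the largest changes were chosen among those without overlap, so its absence in them was set by that choice. Where a lack of overlap is given for a gene, it describes the values and is shared with most genes. With 3 libraries against 3, an exact permutation test of a single gene cannot go below p = 0.1, two-sided.

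The gene lists split by function. Immediate early genes, matrix proteins and proteases, interferon and oxidative stress genes were mostly higher after culture, and genes of mitosis were all lower. The plot of list shares gives every list beside the level of all genes. Counts of list members below are to be read beside 19.6% higher and 15.9% lower over all genes.

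**Figure D1:**
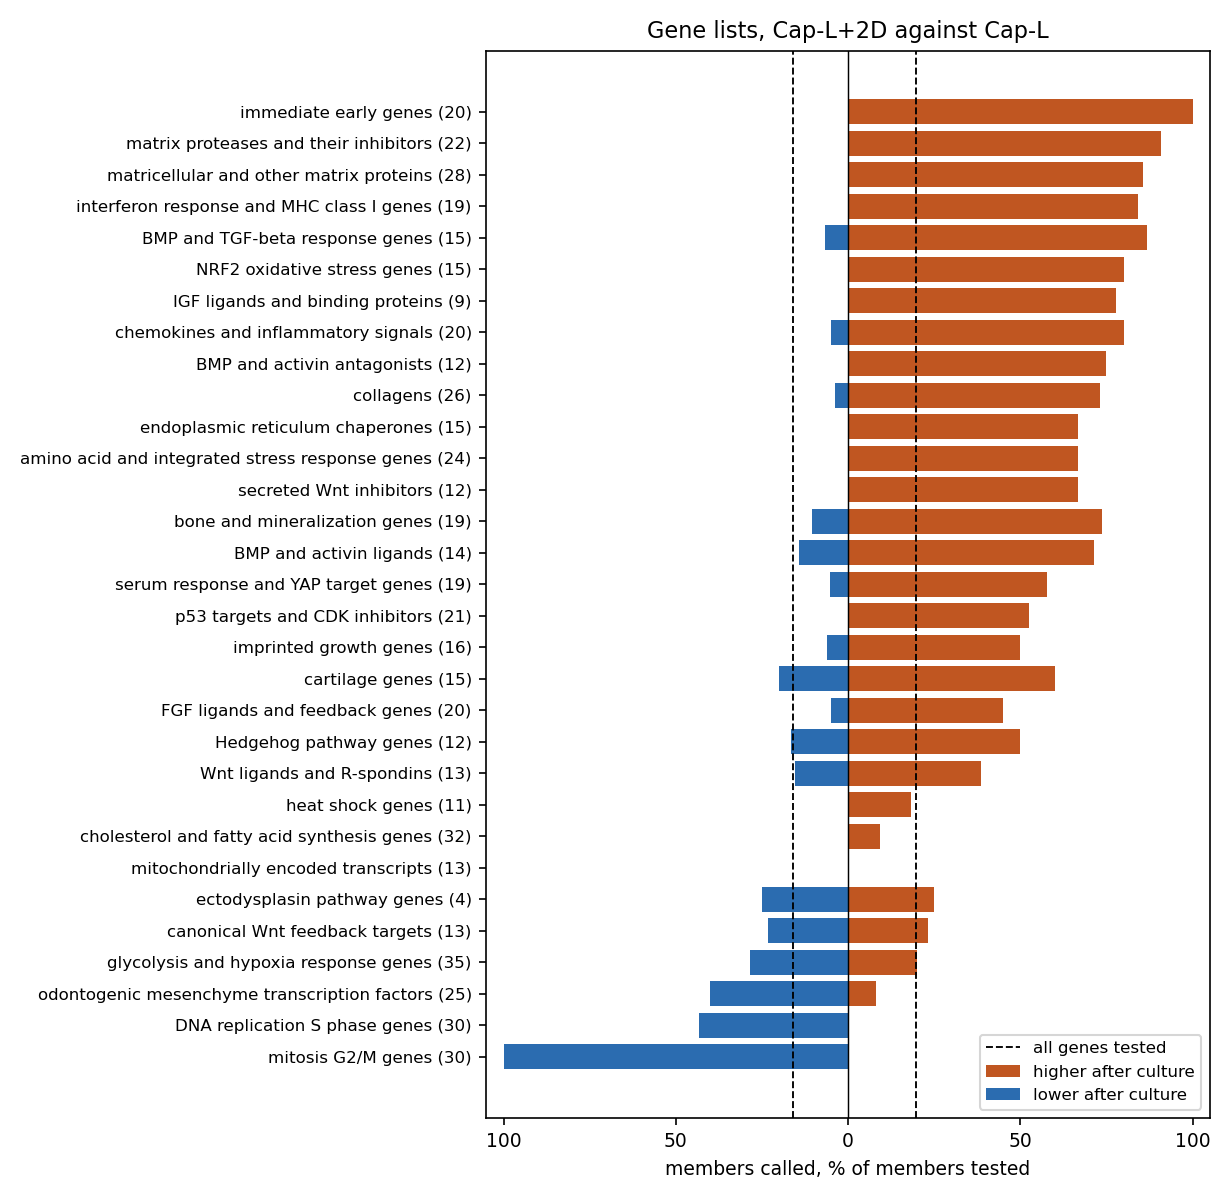
Share of the tested members of each list called higher (right) or lower (left) in Cap-L+2D than in Cap-L, in percent, with the number of members tested in brackets. The dashed lines mark 19.6% and 15.9%, the shares among all genes tested. Immediate early genes reach 100% on the right and genes of mitosis 100% on the left.

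The gene with the largest increase among well-expressed genes was Gpnmb, a membrane glycoprotein of bone cells, macrophages and pigment cells. It was at 0.950, 1.09 and 1.35 CPM in Cap-L and at 511, 510 and 532 CPM in Cap-L+2D. The log2 fold change was 8.84 ± 0.09 (SE, adjusted p = 2.62e-29). In Bell-L it was at 1.21 to 1.94 CPM, so the level after culture lay far above both uncultured stages. Lyz2, the lysozyme of macrophages, went from 4.89, 5.07 and 5.09 to 335, 327 and 326 CPM, and Lgals3, which encodes the lectin galectin-3, from 2.81, 3.38 and 2.74 to 119, 116 and 123 CPM. Both were above every Cap-L library, with log2 fold changes of 6.04 and 5.31. The smooth muscle actins Acta2 and Actg2 rose by 5.24 and 5.14 on the log2 scale. Lyz2 reads may be shared with its near copy, which makes its value less certain.

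Genes of mineralized matrix rose, while the transcription factors that start the osteoblast program did not. Of 19 bone and mineralization genes tested, 14 were higher and 2 lower, with a median log2 fold change of 1.34. Ibsp, bone sialoprotein, was at 118, 119 and 115 CPM in Cap-L and at 1163, 1180 and 1128 CPM in Cap-L+2D, without overlap (log2 fold change 3.30 ± 0.05, adjusted p = 2.14e-26). Spp1, osteopontin, was at 2.64, 2.81 and 2.22 CPM before culture and at 176, 177 and 181 CPM after it. Dmp1, a matrix phosphoprotein of osteocytes and odontoblasts, was at 2.08, 2.10 and 1.83 CPM and then at 65.8, 63.6 and 65.4 CPM. In each of these genes all cultured libraries were above all uncultured ones, with log2 fold changes of 6.11 for Spp1 and 5.01 for Dmp1.

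Osteocalcin, the late marker of bone-forming cells, was close to the floor before culture. Bglap had 0.141, 0.409 and 0.104 CPM in Cap-L and 34.8, 34.1 and 35.3 CPM in Cap-L+2D (log2 fold change 7.19 ± 0.15, adjusted p = 7.59e-23). Its near copy Bglap2 had 2 counts in the 3 Cap-L libraries together and 1525 in Cap-L+2D, a ratio of 794 (95% counting interval 219 to 6560). Since read pairs that fit both copies may have been lost or split, the values of this pair are less certain than those of Ibsp.

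Upstream and enzymatic members behaved differently from each other. Runx2, the master regulator of osteoblasts, was at 441, 412 and 453 CPM in Cap-L and at 288, 289 and 281 CPM in Cap-L+2D, and was called lower (log2 fold change -0.61 ± 0.04, adjusted p = 5.75e-12). Sp7, the factor that acts after Runx2, had a log2 fold change of -0.28 and was not called. Alpl, the phosphatase that frees phosphate for mineral, rose from between 255 and 268 to between 508 and 537 CPM, and Phex and Smpd3, which also favour mineral deposition, rose by 1.35 and 1.42 on the log2 scale. Enpp1, which makes the mineral inhibitor pyrophosphate, fell by 1.25 on the log2 scale.

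**Figure D2:**
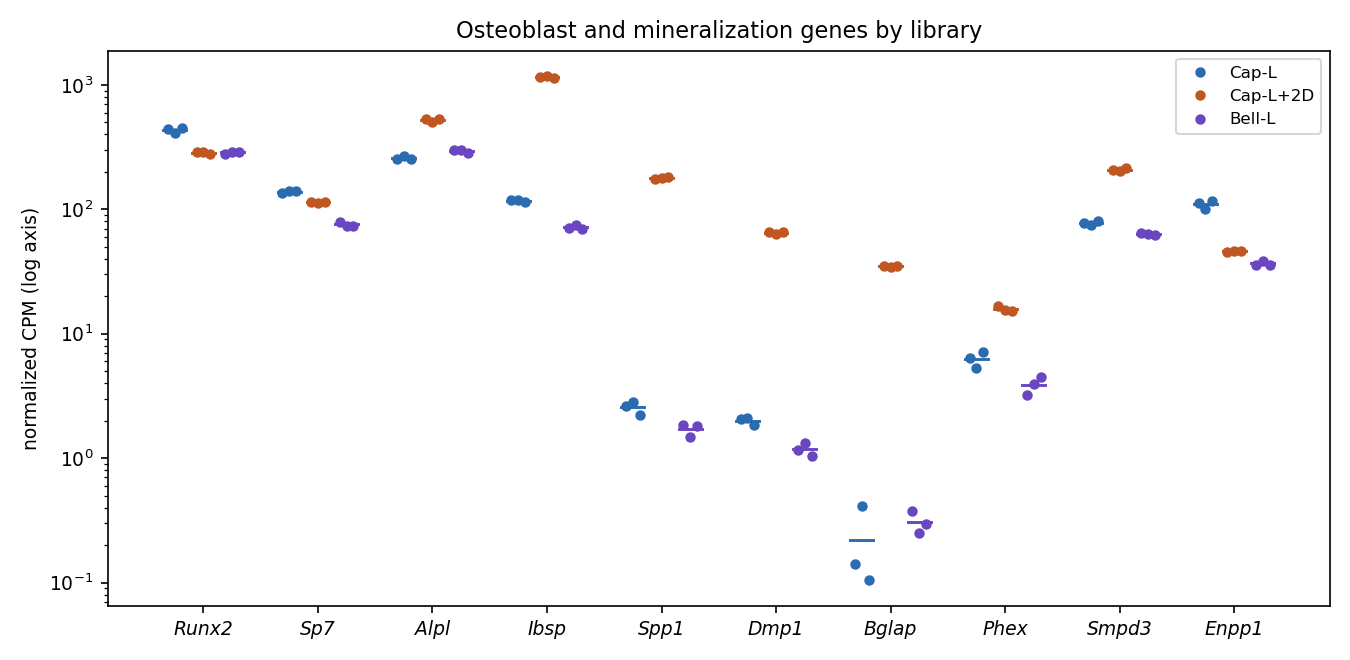
Normalized CPM (log axis) of 10 osteoblast and mineralization genes in each library of Cap-L, Cap-L+2D and Bell-L; bars are group means, n = 3. Ibsp, Spp1, Dmp1 and Bglap sit far higher in Cap-L+2D than in both other groups, whereas Runx2 and Enpp1 are lower than in Cap-L.

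The matrix around the cells was transcribed more. Collagen genes were higher in 19 of 26 tested and lower in 1, with a median log2 fold change of 0.96. Col1a1, the main chain of bone and dentin collagen, was at 2107, 2321 and 2321 CPM in Cap-L and at 8765, 8114 and 9028 CPM in Cap-L+2D (log2 fold change 1.94 ± 0.05, adjusted p = 1.26e-20). Col14a1, a fibril-associated collagen, rose from 7.14, 7.19 and 7.03 to 116, 113 and 116 CPM, and Col5a3 from 3.98, 4.03 and 5.26 to 64.6, 61.0 and 69.3 CPM. No cultured library of these genes fell within the uncultured range. Col22a1, found where tissues join, rose by 2.41 on the log2 scale.

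Other matrix proteins showed the same direction. Of 28 matricellular and related proteins, 24 were higher and 4 not called, with a median of 1.33. Lox, which cross-links collagen, was at 75.1, 68.4 and 73.7 CPM and then at 446, 464 and 434 CPM. Tnn, tenascin-W of the osteogenic mesenchyme, was at 43.8, 42.9 and 47.1 CPM and then at 224, 213 and 236 CPM. Cultured and uncultured libraries were well apart in both, with log2 fold changes of 2.63 and 2.33. Omd, the mineral-binding osteomodulin, rose by 2.27, and Ccn5, a matricellular member of the CCN family, by 4.04 from at most 0.300 CPM.

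Matrix proteases and their inhibitors, 1 list, were higher in 20 of 22 tested and not called in 2, with a median of 1.25. Mmp13, the collagenase of cartilage and bone, rose from 1.79, 1.72 and 1.45 to 62.8, 63.4 and 58.5 CPM (log2 fold change 5.21 ± 0.09, adjusted p = 1.21e-24). Mmp12, the elastase of macrophages, rose from 0.105, 0.136 and 0.0693 to 14.8, 15.4 and 15.5 CPM. Mmp8 and Mmp3 stayed below 2 CPM after culture while being called higher, with log2 fold changes of 3.91 and 3.47. Cartilage genes were mixed, with 9 of 15 higher (60%) and 3 lower (20%), against 19.6% and 15.9% over all genes. The cartilage regulator Sox9 rose by 1.56, the collagen Col11a2 by 2.76, Matn4 by 2.38, Col9a2 by 2.02 and the proteoglycan Acan by 1.76 on the log2 scale.

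Most BMP, activin and TGF-beta ligands tested rose, as did most BMP and activin antagonists. Of 14 ligands in the list of BMP and activin genes, which also holds Tgfb1 and Tgfb2, 10 were higher (71.4%) and 2 lower (14.3%). The shares over all genes were 19.6% and 15.9%, and the median of the ligands was 0.86. Of 12 antagonists, 9 were higher and 3 not called (median 0.91). Bmp2, which drives odontoblast and bone differentiation, was at 31.4, 31.6 and 33.0 CPM in Cap-L and at 108, 110 and 108 CPM in Cap-L+2D (log2 fold change 1.77 ± 0.05, adjusted p = 1.55e-20). Nog, the BMP-binding antagonist noggin, was at 2.74, 2.53 and 2.77 CPM and then at 14.4, 15.5 and 14.1 CPM. The cultured libraries were above the uncultured ones for both ligand and antagonist.

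Among the other genes of these groups, the antagonists Fst, Grem1, Chrd and Nbl1 rose by 1.44, 1.11, 1.00 and 1.94 on the log2 scale. Chrdl2 had a log2 fold change of 0.27 and was not called. Of the ligands, Bmp4 rose by 0.62 and the activin chain Inhbb by 2.7, whereas Inhba, the activin chain of the early tooth mesenchyme, fell by 0.83. The TGF-beta ligands Tgfb1, Tgfb2 and Tgfb3 rose by 1.22, 2.01 and 1.02. Lefty1 had 2 to 9 counts in each of these 6 libraries and was not tested. Genes that respond to BMP and TGF-beta were higher in 13 of 15 and lower in 1, among them Ltbp2, Id1 and Pmepa1 with log2 fold changes of 4.70, 1.87 and 1.56.

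In the Wnt pathway, 5 of 13 ligands and R-spondins were higher (38.5%) and 2 lower (15.4%), against 19.6% and 15.9% over all genes. R-spondins amplify Wnt signals at the receptor. Rspo2 was at 12.0, 13.4 and 12.4 CPM in Cap-L and at 37.1, 38.3 and 35 CPM in Cap-L+2D, and Rspo4 at 1.65, 1.66 and 1.45 and then at 10.2, 9.93 and 9.26 CPM. Both rose without overlap, with log2 fold changes of 1.54 and 2.61, while Rspo3 fell by 0.55 and Rspo1 had a log2 fold change of 0.25 and was not called. The ligands Wnt9a and Wnt11 rose by 1.57 and 1.5, the epithelial ligand Wnt6 fell by 1.35, and Wnt2 had a log2 fold change of -0.06 and was not called.

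Secreted Wnt inhibitors were higher in 8 of 12 and not called in 4, with a median of 0.82. Wif1 was at 62.2, 63.1 and 66.3 CPM and then at 226, 224 and 234 CPM, and Sostdc1, which restrains tooth number, at 72.4, 75.3 and 66.7 and then at 181, 173 and 174 CPM. Both were above their uncultured range in all 3 cultured libraries. Sfrp4, Dkk3, Dkk2 and Sfrp2 rose by 2.04, 1.2, 0.75 and 0.66. Genes that report canonical Wnt activity did not move in 1 direction. Of 13 tested, 3 were higher and 3 lower, 23.1% each, against 19.6% and 15.9% over all genes. Nkd2 and Nkd1 rose by 2.08 and 0.81, Lef1 and Rnf43 fell by 1.14 and 1.37, and Axin2, the most used reporter of the pathway, had a log2 fold change of 0.13 and was not called.

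Hedgehog genes were higher in 6 of 12 (50%) and lower in 2 (16.7%), against 19.6% and 15.9% over all genes. Gli1, the transcriptional readout of the pathway, was at 119, 123 and 121 CPM in Cap-L and at 226, 209 and 224 CPM in Cap-L+2D (log2 fold change 0.86 ± 0.04, adjusted p = 3.16e-15). Hhip, a target that binds the ligand, rose by 2.17 and the co-receptor Gas1 by 1.29, while Ptch1 had a log2 fold change of 0.46 and was not called. Shh itself, an epithelial ligand made in the enamel knot, was at 0.176, 0.245 and 0.277 CPM before and at 1.74, 1.07 and 1.36 CPM after culture. It was called higher at a level under 2 CPM.

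FGF genes were higher in 9 of 20 (45%) and lower in 1 (5%), against 19.6% and 15.9% over all genes. Fgf20, a ligand of the enamel knot, had 345 counts in Cap-L and 7 in Cap-L+2D, which was 47.4-fold lower (95% counting interval 22.7 to 119). Fgf7, a mesenchymal ligand for epithelium, rose by 1.74, Fgfr4 by 1.71 and Fgf9 by 1.61. Of 4 ectodysplasin genes, Eda had a log2 fold change of 0.08 and was not called, Edar, the epithelial receptor, fell by 2.61 and Eda2r rose by 2.44. Insulin-like growth factor genes were higher in 7 of 9 and not called in 2, and Igf1 went from 164, 149 and 161 to 697, 720 and 684 CPM.

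The transcription factors that mark odontogenic mesenchyme were lower in 10 of 25 tested and higher in 2, against 15.9% and 19.6% over all genes. Their median log2 fold change was 0.03. These counts depended on the limit on the fold: without it 11 were lower and 10 higher, and with a limit of 1 on the log2 scale 0 and 1. Msx1, needed for the bud to become a cap, was at 421, 498 and 430 CPM in Cap-L and at 268, 259 and 266 CPM in Cap-L+2D (log2 fold change -0.77 ± 0.05, adjusted p = 2.30e-12). Its relative Msx2 went the other way, from 2.74, 2.02 and 2.49 to 10.1, 10.3 and 10.2 CPM (log2 fold change 2.10). Groups did not overlap in either gene. Lhx6, Dlx1, Dlx5 and Dlx6 fell by 0.61, 0.95, 0.84 and 1.00, and Pax9 had a log2 fold change of -0.08 and was not called. Dlx1 shares 43.3% of its exon length with another gene.

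Genes of cell division were lower after culture. All 30 mitosis genes tested fell, with log2 fold changes from -1.47 to -0.50 and a median of -0.92, whereas 13 of 30 genes of DNA replication fell and 17 were not called, with a median of -0.42. Mki67, the antigen of cycling cells, was at 307, 267 and 304 CPM in Cap-L and at 123, 126 and 123 CPM in Cap-L+2D (log2 fold change -1.24 ± 0.05, adjusted p = 2.98e-17). Cenpf and Cenpe, which act at the kinetochore, fell by 1.47 and 1.38 and the kinase Aurka by 1.26. Of the replication genes, Uhrf1 fell by 1.05, Gins3 had a log2 fold change of -1.08, Tyms of -0.89 and Cdc6 of -0.67, while Pcna, the replication clamp, had a log2 fold change of -0.24 and was not called. With library totals alone, 24 of the 30 replication genes were lower.

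Inhibitors of the cycle rose in parallel. Of 21 p53 targets and inhibitors of cyclin-dependent kinases, 11 were higher and 10 not called. Cdkn1a, p21, was at 15.5, 15.6 and 12.8 CPM and then at 112, 112 and 110 CPM (log2 fold change 2.92 ± 0.06, adjusted p = 5.72e-23). The death receptor Fas rose by 3.44 and the inhibitor Cdkn2b by 4.24. Gdf15, a stress cytokine, had 3 counts before and 198 after culture, a ratio of 68.7 (95% counting interval 23.2 to 336).

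Stress programs were raised to different degrees. All 20 immediate early genes were higher, with a median of 1.4. Fosb was at 305, 301 and 315 CPM and then at 2268, 2247 and 2246 CPM, and Atf3 at 22.8, 22.9 and 19.7 and then at 206, 208 and 212 CPM. Klf2 rose by 3.18. Genes of the oxidative response that the factor NRF2 controls were higher in 12 of 15, led by the heme oxygenase Hmox1 (16.9, 17.8 and 17.8, then 171, 154 and 170 CPM) and the sulfiredoxin Srxn1, which rose by 2.71. These genes were above all uncultured libraries. Genes of the integrated stress response, which follows a lack of amino acids or misfolded protein, were higher in 16 of 24, with log2 fold changes of 4.63 for Chac1, 4.45 for Nupr1, 3.11 for Cebpb, 2.97 for Trib3 and 0.94 for the asparagine synthetase Asns. Chaperones of the endoplasmic reticulum were higher in 10 of 15, with Herpud1, Dnajb9, Calr and Xbp1 at 1.29, 1.25, 0.76 and 0.74. Heat shock genes were higher in 2 of 11 (18.2%), Hspb1 and Dnajb1, near the 19.6% of all genes. Cebpb shares 20.7% of its exon length with another gene, Spp1 18.8%, Krt6a 24.8% and Ankrd37 26.4%.

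Immune signals rose as well. Interferon-stimulated and MHC class I genes were higher in 16 of 19 and not called in 3 (median 1.69), and chemokines and inflammatory signals in 16 of 20 with 1 lower (median 1.51). Ptgs2, the inducible prostaglandin synthase, was at 3.41, 2.64 and 3.46 CPM and then at 87.8, 97.4 and 90.9 CPM (log2 fold change 4.88 ± 0.08, adjusted p = 5.63e-25). Ifit1, an antiviral effector, was at 0.211, 0.163 and 0.242 CPM and then at 3.56, 3.49 and 3.10 CPM. Ifit3, Rsad2 and Isg15 rose by 2.95, 2.88 and 2.58. B2m, the light chain of MHC class I, went from 66.1, 68.8 and 64.5 to 231, 231 and 208 CPM (log2 fold change 1.74). B2m was also the reference transcript of the study's RT-qPCR, and of 15 common reference genes it had the largest change, with Gusb at 1.06 and Tfrc at 0.75.

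The promoters of 6 lists were searched for the short motif of a factor known to control such genes, and the share with a match is given beside that of all promoters. Promoters were taken from RefSeq (build GRCm38.p6, 250 bases before to 50 after the start, 12451 tested genes with an entry), and matches were counted on both strands. The interferon motif, GAAA followed by any 2 bases and GAAA, stood in 8 of 18 interferon promoters (44.4%) and 3.62% of all, the motif TGATGNAA of the integrated stress response in 7 of 20 (35%) and 2.85%, the motif TGACNNNGC bound by NRF2 in 7 of 12 (58.3%) and 16.6%, and the cell cycle motif TTTGAA in 19 of 25 mitosis promoters (76%) and 14.8%. The motif TGACGTCA stood in 1 of 15 immediate early promoters (6.67%) and 3.24% of all, and TCACNNNAC in 6 of 22 promoters of cholesterol and fatty acid synthesis (27.3%) and 12.5%. A match is a description of the letters and not a bound site. Stretches of 8 promoters of genes described above are shown 5′ to 3′ on the gene's strand, so that the motif can be seen in members that rose and in members that fell, with the match on either strand in capitals. In Isg15, 3 matches overlap and run together.
Ifit1, chr19:34640765-34640833, plus strand: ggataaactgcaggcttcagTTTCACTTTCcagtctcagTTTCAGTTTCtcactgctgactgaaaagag
Isg15, chr4:156200855-156200916, minus strand: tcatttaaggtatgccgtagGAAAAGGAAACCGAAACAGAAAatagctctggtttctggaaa
Chac1, chr2:119351029-119351076, plus strand: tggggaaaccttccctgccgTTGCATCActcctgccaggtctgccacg
Nupr1, chr7:126625553-126625600, minus strand: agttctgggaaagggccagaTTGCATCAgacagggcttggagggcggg
Gclm, chr3:122245403-122245451, plus strand: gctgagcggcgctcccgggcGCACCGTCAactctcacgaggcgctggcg
Prdx1, chr4:116685446-116685494, plus strand: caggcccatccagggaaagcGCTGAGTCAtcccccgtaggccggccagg
Mki67, chr7:135716452-135716515, minus strand: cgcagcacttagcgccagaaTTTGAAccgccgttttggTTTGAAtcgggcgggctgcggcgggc
Cdk1, chr10:69352913-69353003, minus strand: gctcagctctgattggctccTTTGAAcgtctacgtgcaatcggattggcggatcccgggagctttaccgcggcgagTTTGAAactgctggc

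The levels behind these stretches differed in direction. Gclm, which makes glutathione, rose from 18.6, 17.3 and 17.3 to 35.3, 36.3 and 34.4 CPM, and the peroxiredoxin Prdx1 from 48.3, 55.2 and 49.2 to 81.2, 84.5 and 79.2 CPM. Cdk1, the kinase that starts mitosis, fell from 88.8, 102 and 90.8 to 57.2, 56.7 and 59.6 CPM. Its groups did not overlap, as was the case for the other genes of that group of sequences.

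Metabolic genes differed by list. Glycolysis and hypoxia genes were lower in 10 of 35 (28.6%) and higher in 7 (20%), against 15.9% and 19.6% over all genes. The lactate exporter Slc16a3 fell from 33.6, 38.8 and 36.6 to 8.66, 9.62 and 9.34 CPM, and the glycolytic enzyme Pfkl from 162, 181 and 166 to 60.8, 53.2 and 59.5 CPM. The hypoxia-induced peptide Adm rose by 2.15 and Ankrd37, another hypoxia target, fell by 1.80, so the hypoxia members did not share a direction. Genes of cholesterol and fatty acid synthesis were higher in 3 of 32, including Scd1 and Ebp, and not called in 29. Imprinted growth genes were higher in 8 of 16, including the abundant H19, which went from between 4111 and 4268 to between 8792 and 8993 CPM, and lower in 1, Nnat, at -1.73.

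Markers of other cell types changed to different degrees. Red blood cell genes fell in 11 of 12 tested, and their summed level went from 2870 to 3529 CPM in Cap-L to 34.7 to 40.7 CPM in Cap-L+2D. Hbb-y, an embryonic beta globin, was at 390, 434 and 385 CPM and then at 3.80, 2.84 and 3.81 CPM (log2 fold change -6.85 ± 0.08, adjusted p = 8.15e-28). The globin genes Hba-a1, Hba-a2, Hbb-bs and Hbb-bt, whose near-identical copies make single values uncertain, had log2 fold changes from -6.54 to -6.31. The buccal culture showed a like drop, from 3331 to 3447 CPM to 35.3 to 40.9 CPM.

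Skeletal muscle markers moved the opposite way, with 16 of 17 higher and a median of 4.03. Their sum was 29.6 to 30.6 CPM in Cap-L and 435 to 468 CPM in Cap-L+2D. Myh3, embryonic myosin, went from 2.29, 2.51 and 2.42 to 84.9, 80.4 and 87.0 CPM, and Actc1, cardiac-type actin, from 5.49, 4.79 and 4.16 to 125, 120 and 126 CPM. The satellite cell factors Pax7 and Myf5 were near the floor before culture, with 4 counts of Myf5 in Cap-L against 117 in Cap-L+2D, a ratio of 30.4 (95% counting interval 11.6 to 114). The part of muscle cells in the changes of Acta2, Actg2 and other contractile genes was not tested.

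Macrophage markers were higher in 14 of 18 and lower in 1, and their sum rose from 149 to 154 CPM to 765 to 785 CPM, of which Lyz2 alone made 326 to 335 CPM. C1qa, C1qc, Cd68 and the receptor Csf1r, which define the lineage, rose by 2.55, 2.34, 2.37 and 1.37. F13a1, a marker of embryonic and resident macrophages, fell by 1.75, and Lyve1, a marker of lymphatic vessels and of some resident macrophages, had a log2 fold change of -3.40. These markers moved with Gpnmb, Mmp12 and the inflammatory list, and their part in those results was not tested.

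Epithelial markers kept their summed level, at 847 to 908 CPM in Cap-L and 843 to 902 CPM in Cap-L+2D, but changed in kind. Krt4 and Krt13, the keratin pair of the lining oral mucosa, went from 0.281, 0.191 and 0.277 to 58.8, 55 and 59.3 CPM and from 0.598, 0.708 and 0.312 to 111, 108 and 112 CPM. Krt6a, a keratin of activated epithelium, rose by 3.54 and Krt15 by 0.75. Krt4, Krt13 and Krt6a are part of the sum, so its level hides a fall of other markers. The median log2 fold change of the list was -0.18. Of the 25 markers 11 fell, among them Grhl2, Epcam and Trp63, with log2 fold changes of -1.72, -1.30 and -1.64. Shh and Edar are also epithelial genes, and the part of the epithelial RNA in their changes was not tested.

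Vessel markers fell in part, and glial markers were mixed. Endothelial genes fell in 6 of 20 (30%) and rose in 1 (5%), against 15.9% and 19.6% over all genes. Their sum went from 877 to 889 CPM to 677 to 690 CPM. Aplnr, Tek, Egfl7 and Plvap had log2 fold changes of -2.46, -1.88, -1.46 and -1.12, while the junction protein Pecam1 had a log2 fold change of 0.02 and was not called. Sox10, the factor of Schwann cells and their crest precursors, fell from 4.08, 4.60 and 3.98 to 0.243, 0.104 and 0.299 CPM. Foxd3 and Cdh19 also fell. Of 10 glial markers 5 were lower, 1 higher and 4 not called. The summed glial markers were at 146 to 150 CPM before and 156 to 163 CPM after culture. Of the pericyte markers, Kcnj8, Cspg4 and Abcc9 rose by 3.33, 1.06 and 0.82 and Rgs5 fell by 1.21. Neuronal markers were low in both groups, with a sum of 23.9 to 32.0 CPM.

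**Figure D3:**
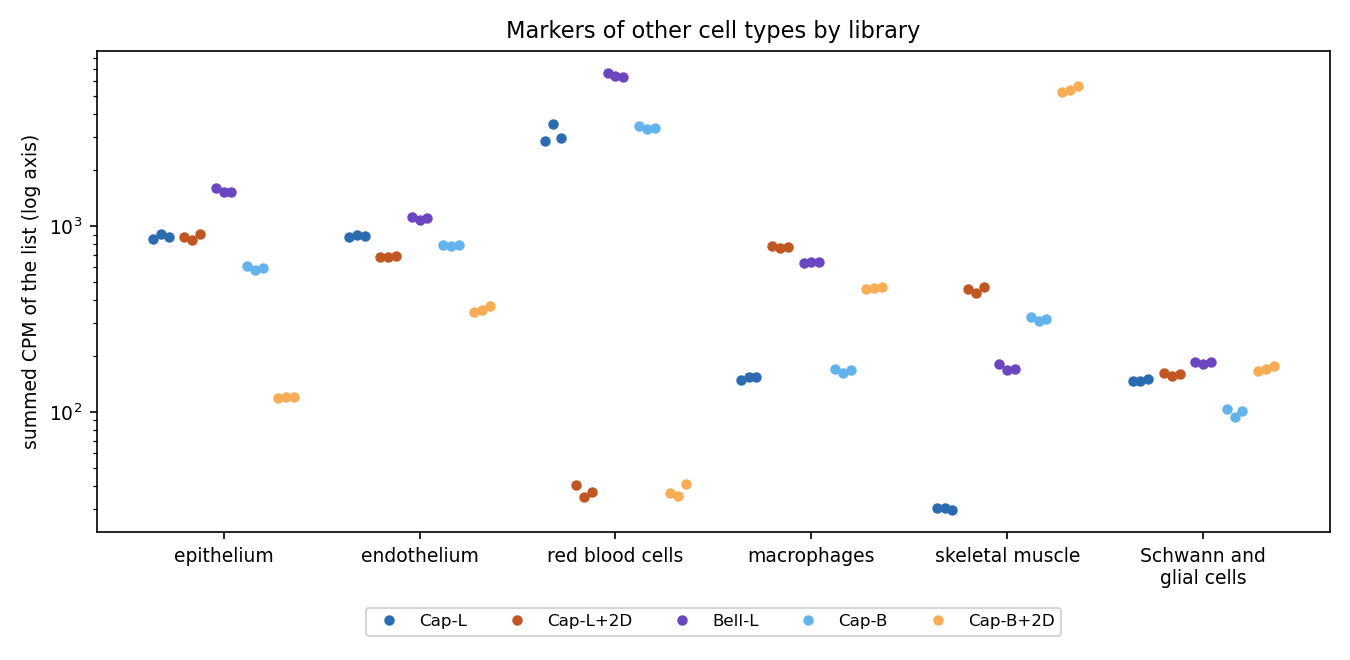
Summed CPM (log axis) of the marker list of 6 other cell types in each library, with 3 libraries per group. Red blood cell markers fall from 2870 to 3529 CPM in Cap-L to 34.7 to 40.7 CPM in Cap-L+2D, and muscle and macrophage markers rise. The epithelial sum, which includes the raised Krt4 and Krt13, stays level in the lingual part. In Cap-B+2D it falls to 119 to 121 CPM.

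The cultured lingual part was then set against the same part at the bell stage, which follows the cap stage in the embryo, to see where 2 days in vitro and development in place lead to different levels. Of 21425 genes, 3095 (14.4%) were higher and 3591 (16.8%) lower in Cap-L+2D than in Bell-L by the same rule. With library totals alone these counts were 2451 and 4534, so the share of higher genes among those called went from 46.3% to 35.1%. Both uncultured groups and the cultured group come from 1 fit, and the comparison shares the Cap-L+2D libraries with the one above, so its values are given on their own.

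Mineralization genes were mostly above the bell stage. Of 19 tested, 15 were higher and 1 lower in Cap-L+2D, with a median log2 difference of 1.4. Ibsp was at 70.7, 74.9 and 69.9 CPM in Bell-L, far under its cultured level given above (log2 difference 4.01, adjusted p = 1.08e-27). Bglap, Spp1 and Dmp1 were at 0.252 to 0.375, 1.48 to 1.84 and 1.05 to 1.33 CPM in Bell-L, with log2 differences of 6.81, 6.70 and 5.78. Slc13a5, a citrate transporter of mineralizing cells, was at 55.4, 54.5 and 52.9 CPM in Cap-L+2D against 1.58, 1.11 and 1.84 CPM in Bell-L (log2 difference 5.15). Runx2 was at 278, 291 and 291 CPM in Bell-L, a range that overlaps with the cultured libraries.

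Mitosis genes were again lower in culture, in 29 of 30 with a median of -0.78. Of 30 replication genes 7 were lower and 23 not called, against 16.8% lower over all genes. Mki67 was at 344, 344 and 347 CPM in Bell-L, and Cenpf at 76.2, 78.8 and 80.2 CPM, with log2 differences of -1.48 and -1.62. Stress programs were higher than at the bell stage, in 18 of 20 immediate early genes, 12 of 15 NRF2 genes and 14 of 24 genes of the integrated stress response. Cholesterol and fatty acid genes, which hardly changed against Cap-L, were higher than in Bell-L in 25 of 32 and not called in 7, with a median of 0.78. Sqle, which commits squalene to sterols, was at 145, 147 and 147 CPM in culture and at 62.7, 63.8 and 66.2 CPM in Bell-L, and Cyp51 and Scd1 had log2 differences of 1.26 and 1.81.

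Several genes that rose in culture were also above their Cap-L level at the bell stage. Over all genes 14.4% were higher and 16.8% lower than in Bell-L. Among 28 matricellular proteins, 10 were higher and 6 lower, and collagens were higher in 12 of 26 and lower in 1. Lox was at 322, 350 and 361 CPM in Bell-L, Col14a1 at 91.0, 93.5 and 91.7 CPM and Krt13 at 71.0, 64.8 and 66.0 CPM. Each was under its cultured level given above. Tnn and Col22a1, by contrast, were at 25.4 to 26 and 2.00 to 2.59 CPM, with log2 differences of 3.12 and 4.86. Hedgehog genes were higher in 4 and lower in 4 of 12. Shh was at 12.7, 13.5 and 15.0 CPM in Bell-L (log2 difference -3.32) and Hhip at 49.8, 52.3 and 53.5 CPM (log2 difference -1.30), both above the cultured level.

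Red blood cell genes were far lower than at the bell stage, and 14 of 20 endothelial markers were lower, with a median log2 difference of -0.69. The summed red blood cell markers were at 6373 to 6688 CPM in Bell-L, and Hbb-bt, Hbb-bs, Hba-a2 and Hba-a1 had log2 differences of -7.83, -7.80, -7.65 and -7.57. Lyve1 was at 36.9, 39.6 and 42.6 CPM in Bell-L against 0.202, 0.104 and 0.463 CPM in Cap-L+2D (log2 difference -7.15). F13a1 was at 107, 115 and 114 CPM against 3.68, 2.66 and 2.89 CPM. The summed macrophage markers were at 634 to 642 CPM in Bell-L and at 765 to 785 CPM in Cap-L+2D, a sum that includes Lyz2. Lyz2 had 634 to 738 counts in the Bell-L libraries and 8287 to 11973 in Cap-L+2D. Of 18 macrophage markers 3 were higher, 5 lower and 10 not called against Bell-L, beside 14.4% and 16.8% over all genes. Epithelial markers summed to 1529 to 1596 CPM in Bell-L, and 17 of 25 were lower in Cap-L+2D.

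**Figure D4:**
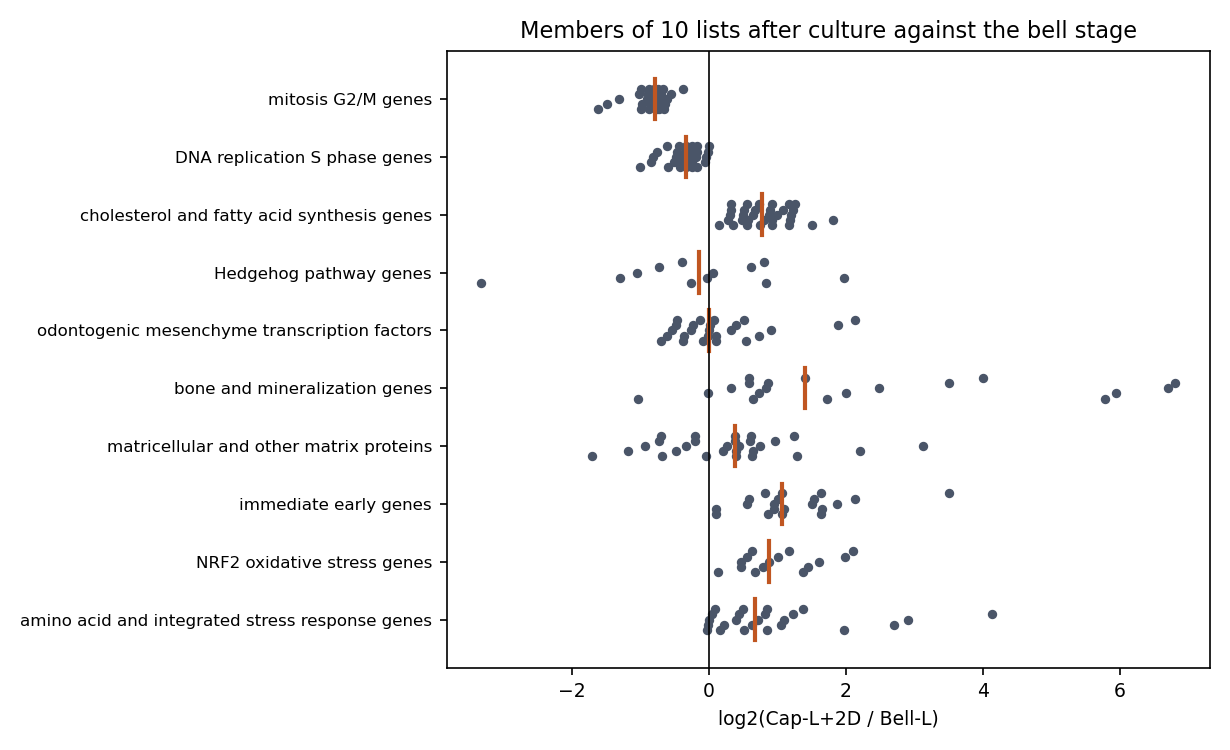
Log2 difference between Cap-L+2D and Bell-L for the members of 10 lists, 1 point per gene, with the median of each list as an orange bar. Mitosis genes lie to the left of 0, with a median of -0.78, and genes of sterol synthesis and mineralization to the right, with medians of 0.78 and 1.4.

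Whether the buccal part of the same germ changed alike was tested with an interaction of culture and side over 12 libraries. Of 22098 genes, 4316 (19.5%) had a change in the lingual part above that in the buccal part and 3526 (16.0%) below it, with adjusted p below 0.05 as the only criterion. With library totals alone 3371 and 4853 genes were above and below, and the share above among those called went from 55% to 41.0%. In the buccal part 4075 genes (18.4%) were higher and 3462 (15.7%) lower after culture, by the rule with the fold limit. Several changes were shared by both sides. Gpnmb had 33, 26 and 35 counts in Cap-B and 14322, 11437 and 12495 in Cap-B+2D, and Spp1 17, 21 and 14 and then 3664, 3017 and 3332. In the buccal culture 14 of 20 immediate early genes and 11 of 15 NRF2 genes were higher and 0 lower. Of 19 bone and mineralization genes 11 were higher and 4 lower.

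Hedgehog targets differed in direction between the sides. Gli1 was at 138, 127 and 137 CPM in Cap-B and at 29.7, 30.2 and 36.1 CPM in Cap-B+2D, while it rose in the lingual part, and the difference between both changes was 2.95 ± 0.08 on the log2 scale (SE, adjusted p = 4.79e-23). For Hhip the difference was 3.77, and 9 of 12 Hedgehog genes had a change in the lingual part above the buccal one, with 1 below. Shh had 43, 31 and 50 counts in Cap-L+2D and 0 in each Cap-B+2D library, so its fitted difference of 7.13 depends on the prior count. Summed epithelial markers fell in the buccal part from 582 to 606 CPM to 119 to 121 CPM. In the lingual part the sum stayed level, with Krt4 and Krt13 raised and other markers lower. The part of epithelial RNA in the Hedgehog difference was not tested.

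Wnt ligands, Wnt inhibitors and matrix genes also differed. Of 13 ligands and R-spondins 10 were above and 1 below, and of 12 inhibitors 10 and 1. Wnt11 was at 24.0, 23.1 and 22.3 CPM in Cap-B and at 14.1, 12.6 and 13.2 CPM in Cap-B+2D, a fall against the rise in the lingual part (difference 2.31 ± 0.10, adjusted p = 9.92e-18). The differences for Wnt2, Wnt9a and Rspo2 were 2.23, 1.87 and 1.79. Lox was at 366 to 380 CPM and Tnn at 122 to 124 CPM in Cap-B, and both were not called in the buccal culture, with log2 fold changes of 0.19 and -0.10, which gave differences of 2.46 and 2.45. Igf1 had a difference of 1.71. Among the odontogenic transcription factors 15 of 25 were above and 3 below, and 10 of 25 were lower after culture on either side.

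Among genes with a mean log2 CPM of at least 3 and no overlap, predicted genes left out, the largest differences were in keratins. Krt13 had 9, 14 and 16 counts in Cap-B and 2, 0 and 0 in Cap-B+2D, against its increase in the lingual part, with a fitted difference of 12.11 that depends on the prior count, as does 11.80 for Krt4. Krt15 was at 55.7, 54.6 and 54.2 CPM in Cap-B and at 1.48, 1.16 and 1.81 CPM in Cap-B+2D (difference 5.96 ± 0.10, adjusted p = 7.26e-28). Krt5, the keratin of basal cells, was at 148, 164 and 156 CPM in Cap-L and 153, 148 and 168 CPM in Cap-L+2D, which overlap, and at 7.63 to 8.47 CPM in Cap-B+2D (difference 4.22). The difference for Krt6a was 6.56, and 21 of 25 epithelial markers were above with 2 below. Endothelial markers were above in 15 of 20 and below in 1. Of these 20, 19 were lower after culture in the buccal part and 6 in the lingual part.

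Genes with a lingual change below the buccal one included those of mitosis, which fell more in the lingual part. Of 30 mitosis genes 27 had a change in the lingual part below that in the buccal part and 3 did not pass, and 20 of 30 were called lower in the buccal culture. Of 24 genes of the integrated stress response 15 were below and 1 above, with Slc7a5, an amino acid transporter, at 62.2, 62.8 and 66.0 CPM in Cap-L, 99.5, 103 and 100 CPM in Cap-L+2D, and 190, 200 and 206 CPM in Cap-B+2D (difference -1.50 ± 0.06, adjusted p = 4.69e-18). The differences for Trib3 and Asns were -1.51 and -1.17. The genes furthest in this direction were Casz1, Kremen2, Pdlim3, Frmpd1 and Shisa2, with differences of -3.05, -2.97, -2.75, -2.73 and -2.68. Kremen2, which takes Wnt receptors from the surface, was at 16.8, 17.7 and 15.0 CPM in Cap-L and at 4.17, 2.87 and 3.68 CPM in Cap-L+2D, whereas Cap-B+2D was at 19.5 to 23.7 CPM. Summed muscle markers were at 5282 to 5633 CPM in Cap-B+2D, above the lingual culture, and their part in these differences was not tested.

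**Figure D5:**
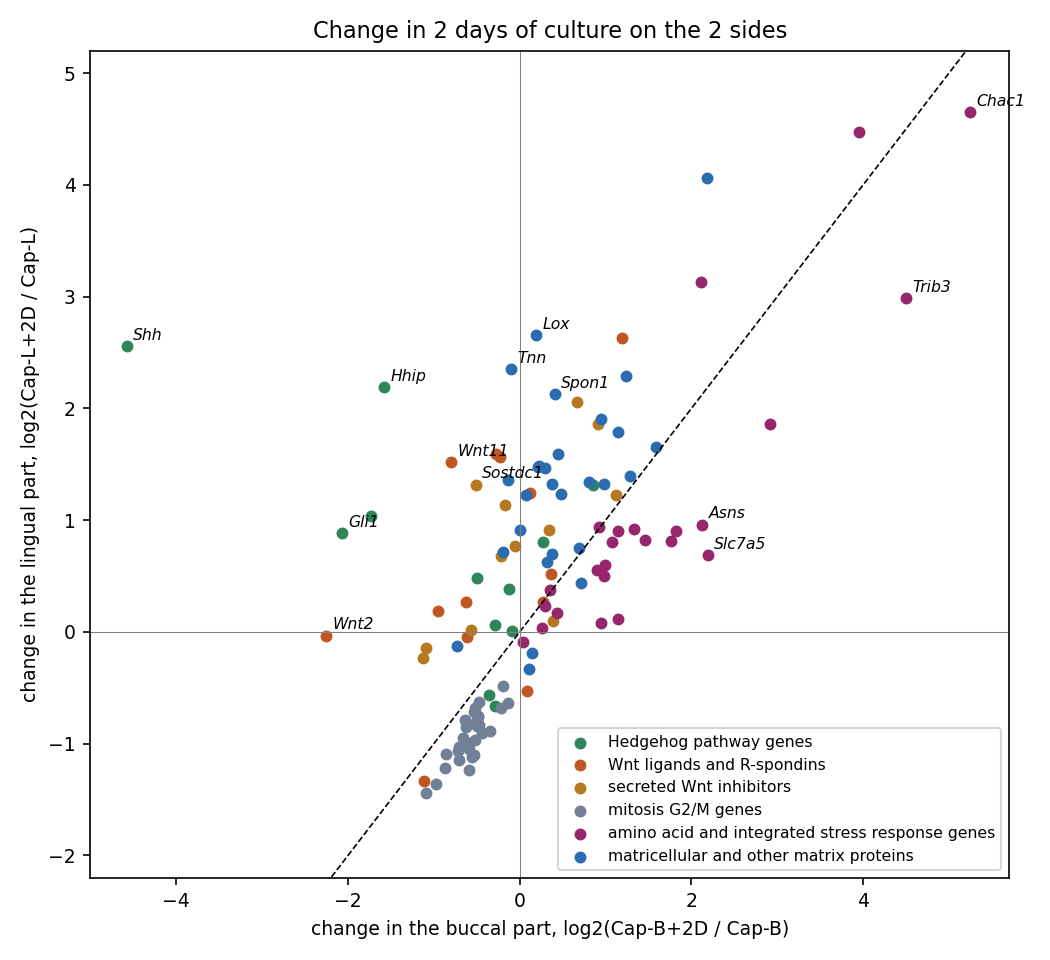
Change in 2 days of culture in the lingual part (vertical axis) against the buccal part (horizontal axis), both as log2 fold changes, for the members of 6 lists, 1 point per gene; the dashed line marks equal changes. Hedgehog targets such as Gli1 and Hhip lie at positive lingual and negative buccal values, while Slc7a5, Asns and Trib3 lie under the line. The buccal value of Shh rests on 0 counts in Cap-B+2D.

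Of the genes that the study discusses for its cultured parts, 25 were tested, 17 were higher and 2 lower after lingual culture. The study chose them on these samples, so their direction is not independent evidence. Apoe, a lipid carrier of macrophages and mesenchyme, rose from 37.8, 47.9 and 36.7 to 434, 413 and 434 CPM (log2 fold change 3.38). Sox2, an epithelial progenitor factor, fell by 0.58 at a level under 5 CPM. Zbed6, with 80.3, 52.0 and 92.2 CPM before and 6.64, 6.54 and 6.89 CPM after culture, was among the largest falls outside blood genes, and it lies within another gene with which it shares 43.2% of its exon length.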

How the data were processed

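Read pairs per gene were deposited by the authors as raw counts for 56748 genes and 24 libraries, without normalization; the table's header names featureCounts in paired mode over exons of an Ensembl annotation of GRCm39, with no strand setting, and no option for reads that fit several places or genes. Overlapping and antisense genes can therefore not be told apart, and near copies are undercounted. The submitters' processing notes list Trimmomatic 0.39, Bowtie 1.2.3 and Subread 2.0.3, the study's methods name other aligners and a stranded kit, and this was not settled. The methods speak of triplicate sequencing and also of 2 biological replicates, whereas each group here holds 3 libraries.

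Counts were fitted in R 4.3.3 with edgeR 4.0.16 (TMM, filterByExpr, quasi-likelihood test, Benjamini-Hochberg adjustment over all genes tested): Cap-L, Cap-L+2D and Bell-L in 1 fit of 9 libraries, and the interaction with side over 12 libraries. The libraries fitted held 21663852 to 39266497 counts, so depth limits mainly genes near the floor of 3 counts; intervals and floors cover counting error only, since reads carry no molecular identifiers. Counting intervals are exact at 95%. Replicate libraries of 1 group differed by more than counting noise, so none was counted once. The code was tested on simulated data.

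Genes were named by a rule: those the study discusses, the 10 largest changes in each direction whose mean log2 CPM reached 3 and whose groups did not overlap, up to 4 called members of each list, and the 5 largest differences in each direction from Bell-L and by side. Named outside it, after their values were seen, were Runx2, Sp7, Axin2, Pax9, Ptch1, Pecam1, Alpl, Ibsp, Phex, Smpd3, Enpp1, Gli1, Wnt6, Inhba, Asns, Slc7a5, Gclm, Prdx1, Cdk1, F13a1, Csf1r, Epcam, Trp63, Krt15, Lhx6 and Sox9, and for the other comparisons Sqle, Cyp51, Scd1, Col22a1, Tnn, Shh, Hhip, Mki67, Cenpf, Wnt11, Wnt9a, Wnt2, Lox, Trib3, Igf1 and Rspo2. Genes named in 1 comparison are at times also given with their level in another. Some genes that the rule names are not reported here. The lists and tests were chosen with earlier results of these data known. Alternatives were other scalings, DESeq2 1.42.0, other filters, thresholds and sets of libraries, a replicate block, and each library left out in turn.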

Additional observations from a re-analysis of the deposited data

Results flagged for a closer look

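The change in culture differed between the lingual and the buccal part, by the interaction test of edgeR, for 4316 genes with the lingual change above the buccal one and 3526 below it. Among the genes named, the difference on the log2 scale was 12.11 for Krt13, 11.80 for Krt4, 6.56 for Krt6a, 5.96 for Krt15 and 4.22 for Krt5. Of the Hedgehog genes, it was 7.13 for Shh, 3.77 for Hhip and 2.95 for Gli1. Of the Wnt genes, it was 2.31 for Wnt11, 2.23 for Wnt2, 1.87 for Wnt9a and 1.79 for Rspo2. Lox, Tnn and Igf1 had differences of 2.46, 2.45 and 1.71. In the other direction, the difference was -3.05 for Casz1, -2.97 for Kremen2, -2.75 for Pdlim3, -2.73 for Frmpd1 and -2.68 for Shisa2, and -1.51 for Trib3, -1.50 for Slc7a5 and -1.17 for Asns.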

How the results depend on the processing

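The counts of changed genes moved mainly with the limit on the fold. Without it, 6902 genes were higher and 7224 lower in Cap-L+2D than in Cap-L, and 6449 and 6691 against Bell-L. With a limit of 1 on the log2 scale, these counts were 2225 and 1285, and 1338 and 1590. With a limit of 0.5 the interaction gave 2246 genes above and 1576 below. Leaving out each library in turn gave 4089 to 4252 higher and 3361 to 3460 lower genes after culture, 3044 to 3117 and 3505 to 3622 against Bell-L, and 3873 to 4636 above and 3088 to 3642 below for the interaction. DESeq2 gave 4283 and 3102, 3103 and 3484, and 3688 and 2933. With library totals alone, Eda, Axin2 and Pecam1, none of them called, had log2 fold changes of -0.0683, -0.0208 and -0.13, and Bmp4, at 0.47, no longer passed the limit on the fold. In 1 fit of all 24 libraries, Sox2, Elavl3 and Krt15 kept their direction but lost their call. The cause was not tested. Without the 100 most abundant genes 10 collagens were higher, since members were removed. Fitted with a block for the replicate number, the counts were 4181 and 3368, 3065 and 3569, and 4331 and 3535. The deviations of same-numbered libraries correlated at -0.0301 to 0.00749, which does not show a pairing by number. Deviations between libraries this alike may be mostly noise, so a shared origin of same-numbered libraries cannot be decided from them. Depth limits what can be said of genes with a few counts, such as Bglap2, Gdf15, Myf5, Lefty1 and Krt13 in the buccal part.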
